A study of Homo sapiens with 10 samples.

Results

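Sites lying directly at the ends of protein-coding genes were taken from the consensus sites of a ZEB1 CUT&RUN experiment in a human breast cancer line. A site belonged here when its midpoint lay within 500 bp of an end of a RefSeq GRCh38 protein-coding gene on chromosomes 1 to 22, whatever its signal. The rule took 9385 of the 52981 consensus sites: 7449 lay at a transcription start, 396 at a transcript end only, and 1540 at an end of a gene whose strand was not in the tables used. The remaining 43596 sites served as the comparison. The cells are an MDA line that the labels describe as Er-/Pr-/Her2-, and the series title places the work in drug-induced mesenchymal-epithelial transition. Untreated cells carry the line label MDA_Parental. The treated cells carry the label MDA_ERI and received 300 nM eribulin, a microtubule inhibitor, for 24, 48 or 72 h. Each of these 4 conditions gave 2 ZEB1 libraries, and 2 IgG libraries of untreated cells were not analysed here. Signal specific to the ZEB1 antibody was thus not separated here from background of the assay. One untreated control with no stated time serves all 3 exposures, so the drug cannot be told apart from days in culture.

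ZEB1 is a zinc finger protein that binds E-boxes of the form CACCTG through its finger clusters and is best known for repressing epithelial genes during the epithelial-mesenchymal transition. Promoters, the stretches next to transcription starts, are where transcription factors and the polymerase assemble, and in many human genes they are rich in G and C. The region past a transcript end is where transcription terminates. CUT&RUN tethers a nuclease to the antibody-marked protein and sequences the DNA it cuts free. The labels also mention Tn5, which belongs to other assays, so the protocol is uncertain.

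The promoters of 6 genes whose start sites carry the results below are shown as RefSeq GRCh38 patch 14 gives them, 250 bases up to the start, 5′ to 3′. Capitals mark the E-box CACCTG or its reverse complement CAGGTG, the AP-1 motif TGANTCA, and the cyclic AMP response element TGACGTCA. LCN2 was named by the size of its change, TMEM184A, PTPN6 and DUS4L were chosen after their values were seen because they hold 2 or more E-boxes, DUSP1 is an immediate early gene whose promoter here lacks CACCTG, and ATG4C had the largest rise after 24 h among start sites above the median level.
LCN2 (chr9:128149203-128149452, plus strand): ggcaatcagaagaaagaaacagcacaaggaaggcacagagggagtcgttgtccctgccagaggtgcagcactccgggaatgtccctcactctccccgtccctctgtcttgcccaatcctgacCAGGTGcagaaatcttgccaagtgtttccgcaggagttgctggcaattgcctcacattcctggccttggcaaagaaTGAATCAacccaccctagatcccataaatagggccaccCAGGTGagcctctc
TMEM184A (chr7:1556206-1556455, minus strand): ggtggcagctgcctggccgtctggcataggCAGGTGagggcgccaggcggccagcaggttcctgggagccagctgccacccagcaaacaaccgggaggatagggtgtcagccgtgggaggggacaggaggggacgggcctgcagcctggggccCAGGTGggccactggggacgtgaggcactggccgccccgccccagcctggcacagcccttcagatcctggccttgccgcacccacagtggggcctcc
PTPN6 (chr12:6946327-6946576, plus strand): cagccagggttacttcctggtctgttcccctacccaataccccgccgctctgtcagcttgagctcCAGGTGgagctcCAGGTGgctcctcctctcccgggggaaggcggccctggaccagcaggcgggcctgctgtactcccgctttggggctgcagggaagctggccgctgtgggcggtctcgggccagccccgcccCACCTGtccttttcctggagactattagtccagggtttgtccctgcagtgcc
DUS4L (chr7:107563721-107563970, plus strand): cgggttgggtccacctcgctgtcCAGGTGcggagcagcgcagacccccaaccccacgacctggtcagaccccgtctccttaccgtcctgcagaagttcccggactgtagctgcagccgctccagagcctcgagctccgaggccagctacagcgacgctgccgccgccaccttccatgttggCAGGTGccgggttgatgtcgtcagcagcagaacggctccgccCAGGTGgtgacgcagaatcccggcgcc
DUSP1 (chr5:172771196-172771445, minus strand): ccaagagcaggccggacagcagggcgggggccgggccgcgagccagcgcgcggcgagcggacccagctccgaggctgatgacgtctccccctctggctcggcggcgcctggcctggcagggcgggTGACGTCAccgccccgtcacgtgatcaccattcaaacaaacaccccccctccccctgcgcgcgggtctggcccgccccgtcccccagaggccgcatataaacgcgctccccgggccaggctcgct
ATG4C (chr1:62783882-62784131, plus strand): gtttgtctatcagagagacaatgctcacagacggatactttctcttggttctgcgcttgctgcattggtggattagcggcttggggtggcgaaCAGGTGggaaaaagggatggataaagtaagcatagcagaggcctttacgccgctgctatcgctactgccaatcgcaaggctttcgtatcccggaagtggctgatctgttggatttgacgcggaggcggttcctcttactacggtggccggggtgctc

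In the consensus sites, libraries held 1130706 to 3561455 counts, with the control libraries the deepest and the 72 h libraries the shallowest. The 2 libraries of each condition differed by less than sampling noise, as chi-square values per degree of freedom of 0.830 to 0.951 show, and were counted as 1 sample, so n = 1 per condition. The p-values below therefore compare libraries, not cultures, and intervals cover counting error only. Levels are CPM (counts scaled to library size) on the TMM scale, which sets the bulk of sites to no change. An alternative scale was set on the background level recovered from the peak files. That level rests on 20 peaks in control and 30, 17 and 13 at 24, 48 and 72 h. It was applied to replicate 1 and carried to replicate 2 by total counts, and its error was not measured. This background scale moves the median of all sites by -0.93, -1.42 and -1.50 log2 at 24, 48 and 72 h. Every higher or lower site below is thus higher or lower relative to the bulk of sites, and a fall in total ZEB1 signal, fewer cells and less signal per cell cannot be told apart. A site was called when edgeR's adjusted p was under 0.05 and the change was at least 2-fold.

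Sites were crowded at transcription starts and not at transcript ends. The 500 bp before a start held 4396 sites and the 500 bp after it 3051, against 470 in the next bin upstream and 888 in the next bin downstream. The densest 100 bp, just before the start, held 2067 sites. At transcript ends, 199 sites lay in the last 500 bp of the transcript and 369 in the 500 bp past it. Of the 15101 genes with a known strand, 7918 had a site at the start (52.4%), 565 at the transcript end (3.74%), and 341 at both. The start sites included 881 shared by 2 starts and 25 shared by 3, and 172 that also lay at a transcript end.

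**Figure D1:**
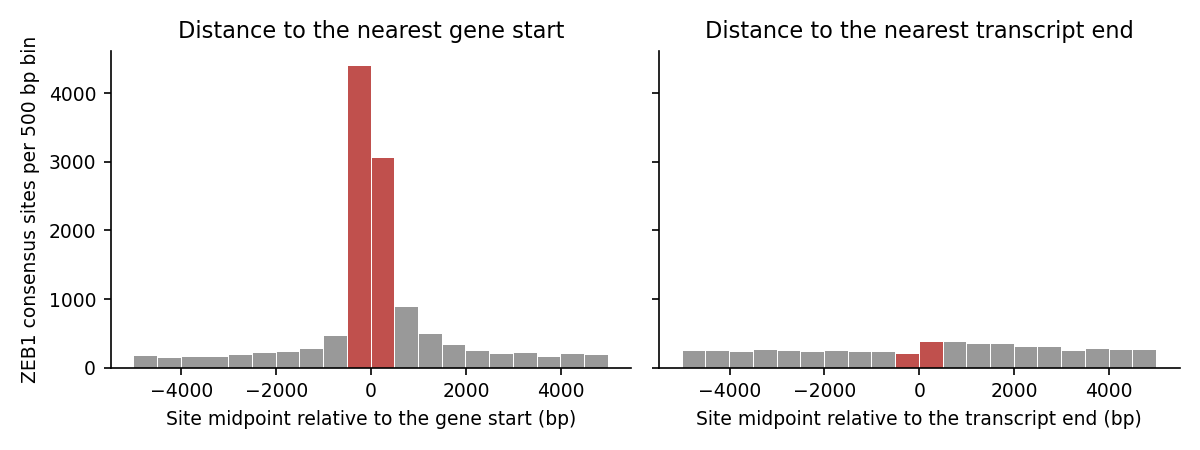
Number of ZEB1 consensus sites per 500 bp bin against the distance of the site midpoint from the nearest transcription start (left) or transcript end (right), in bp, negative before the anchor. The 2 bins within 500 bp, in color, hold 4396 and 3051 sites at starts, and 199 and 369 at transcript ends.

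Start sites were wide rather than dense. Their median width was 412 bp, against 224.5 bp at transcript ends and 209 bp elsewhere, and widths and intervals come from the merged peak lists. The median control level was 18.7 CPM at starts, 13.3 CPM at transcript ends and 11.7 CPM elsewhere. Per kb of site starts had the lowest median, with 44.5 CPM at starts, 58.9 CPM at transcript ends and 52.4 CPM elsewhere. The densest site at a gene end lay at SPATC1L, a gene of the spermatogenesis and centriole associated family, followed by EVI5L, TESK2, TOMM40 and GET3. Control levels at these 4 were 451, 427, 420.2 and 187 CPM. TOMM40 is a channel subunit of the mitochondrial outer membrane and GET3 an ATPase that delivers tail-anchored proteins.

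The promoters that held a site were rich in G and C. Of 12633 promoter sequences of 300 bases whose start matched a gene bound, 7008 belonged to genes with a start site and 5625 to genes without, with a median GC content of 65.7% and 57.0%. With promoters split into 5 equal groups from the least to the most GC, 17.1%, 54.3%, 68.0%, 73.6% and 65.3% of promoters had a site, so the share fell back in the group with the most GC. The ETS motif CCGGAAGT was in 11.04% of promoters with a site, 1.19% of those without and 6.66% of all. The GC box GGGCGG was in 74.5%, 39.7% and 59.0%, and the element TGACGTCA in 3.98%, 1.37% and 2.82%. The TATA motif TATAAA ran the other way, with 5.15%, 16.4% and 10.2%. The ZEB1 E-box CACCTG itself was in 18.1% of promoters with a site, 21.9% without and 19.8% of all. The AP-1 motif TGANTCA was in 4.38%, 7.48% and 5.76%, the TEAD motif GGAATG in 10.2%, 13.0% and 11.5%, and CCAAT in 40.4%, 32.7% and 37.0%. Each motif was searched on both strands over the 300 bases. GC content differs between these groups, and its part in the shares was not tested.

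The share of the signal at start sites was highest after 24 h. Start sites took 18.9% of the counts in consensus sites in control, 20.5% after 24 h, 18.5% after 48 h and 19.1% after 72 h, and transcript-end sites 0.784%, 0.667%, 0.705% and 0.770%. At starts both 24 h libraries lay above the counting intervals of the control libraries and both 48 h libraries below them, and at transcript ends the 24 and 48 h libraries all lay below. The 72 h libraries lay closer but also outside, above at starts with 19.17% and 18.98%. The interval of 72 h replicate 2 overlapped that of control replicate 2 at starts. At transcript ends the 72 h libraries lay below with 0.772% and 0.768%, and their own intervals there overlapped those of control. In the 4 deposited peak lists, a peak was present at 93.2% of start sites in control, 82.0% after 24 h, 58.6% after 48 h and 52.6% after 72 h. For transcript ends the shares were 88.4%, 52.3%, 33.3% and 30.3%, and for other sites 85.3%, 57.4%, 35.8% and 28.1%. Peaks in all 4 lists were found at 44.6% of start sites, 21.0% of transcript-end sites and 20.3% of other sites, while 12.9%, 38.4% and 33.1% had a peak in control only. Depth falls along the same order of conditions, and its part in the loss of peaks was not tested.

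At 24 h, start sites moved down less often than sites elsewhere. Of 6896 start sites tested, 329 were lower (4.77%) and 704 higher (10.2%), beside 13.5% lower and 14.8% higher among all 46436 sites tested. Transcript-end sites went the other way, with 67 of 362 lower (18.5%) and 36 higher (9.94%). Of 1385 sites at genes without a known strand, 142 were lower and 159 higher. Median log2 changes were 0.18 at starts, -0.29 at transcript ends and -0.02 elsewhere. These class medians differ by the same amount on every scale, but on the background scale 2452 start sites were lower and 46 higher, and 210 transcript-end sites were lower and 6 higher. With 1 sample per condition, the difference between classes has no test over samples.

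By 48 and 72 h, calls at starts were rarer and mostly upward. At 48 h, 94 start sites were lower (1.36%) and 314 higher (4.55%), beside 7.55% and 10.5% of all sites. At 72 h, 96 were lower (1.39%) and 423 higher (6.13%), beside 8.55% and 12.2%. Transcript ends had 26 lower and 29 higher sites after 48 h, and 26 lower and 43 higher after 72 h. The sites at genes without a known strand gave 38 lower and 88 higher after 48 h, and 31 lower and 115 higher after 72 h. On the background scale 5362 start sites were lower and 35 higher after 48 h, and 5345 and 19 after 72 h. Transcript ends on that scale had 284 lower and 4 higher sites after 48 h, and 274 and 3 after 72 h.

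**Figure D2:**
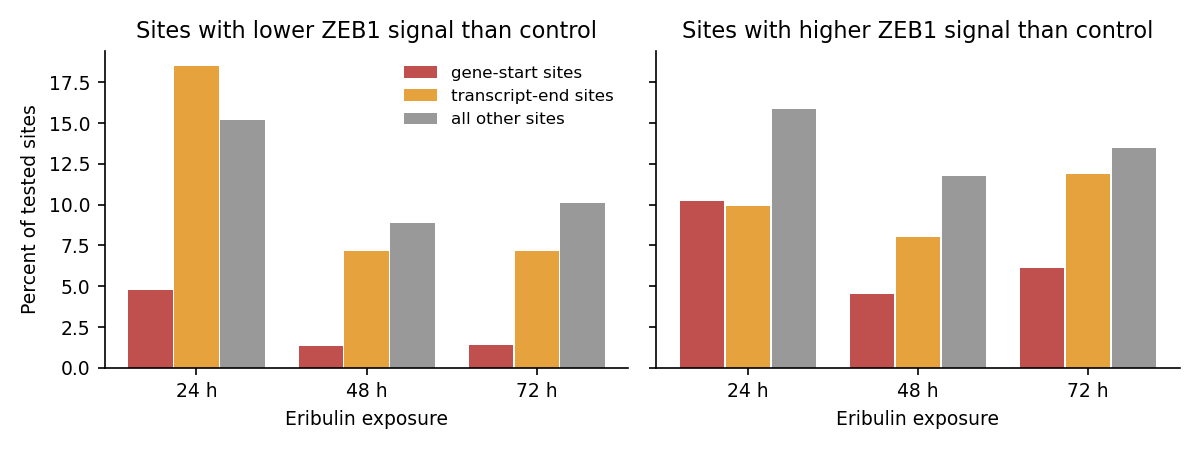
Percent of tested sites with lower (left) or higher (right) ZEB1 signal than control on the TMM scale after 24, 48 and 72 h of eribulin, for start sites, transcript-end sites and all other sites. Start sites have the lowest bars on the left at each time, 4.77%, 1.36% and 1.39%, and transcript-end sites the highest after 24 h, 18.5%.

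The smaller number of losses at starts held at matched control level. Sites were put into 4 equal groups by their control CPM, a value that also enters the change, so medians fall from the lowest to the highest group in every class. In the highest group, above 24.8 CPM, 7.22% of start sites were lower after 24 h, against 26.8% of transcript-end sites and 25.6% of other sites. In the next-to-lowest group the median log2 change was 0.37 at starts, -0.31 at transcript ends and -0.08 elsewhere. In the lowest group the medians were all positive after 24 h, 0.76, 0.54 and 0.86.

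**Figure D3:**
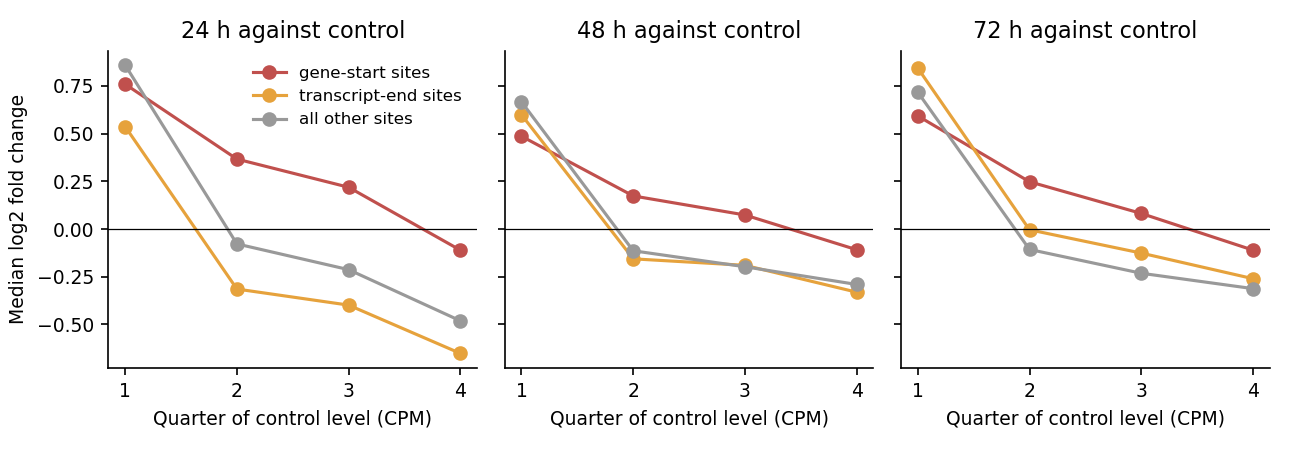
Median log2 fold change against control on the TMM scale (vertical axis) by group of control level in CPM (horizontal axis, 1 lowest to 4 highest) at 24, 48 and 72 h, for start sites, transcript-end sites and all other sites. Start sites lie above the other classes in groups 2 to 4 in every panel, with -0.11 after 24 h in group 4 against -0.65 and -0.48.

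The direct comparison of 72 h with 24 h leaves the shared control out. It called 467 start sites lower and 519 higher, beside 9.26% lower and 12.1% higher among all sites. At transcript ends 24 were lower (6.63%) and 77 higher (21.3%), and the median was 0.30, against -0.08 at starts. Sites at genes without a known strand gave 91 lower and 179 higher. The background scale gave 2058 lower and 127 higher at starts, and 87 lower and 23 higher at transcript ends.

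Sites downstream of the start differed from upstream ones at the later times. Among 500 sites centred 250 to 500 bp downstream of the start, 16.4% were higher after 48 h and 20.4% after 72 h, with medians of 0.25 and 0.41. Among 1669 sites centred 250 to 100 bp upstream, 2.40% and 3.12% were higher, with medians of -0.03 and -0.05, the fewest gains of the 3 upstream groups. Among 538 sites centred 500 to 250 bp upstream, 4.65% and 4.83% were higher, with medians of 0.01 and -0.02. At 24 h the medians were 0.10 downstream, and 0.19 and 0.12 in these upstream groups. The downstream sites had a median control level of 13.3 CPM and the upstream ones 22.5 and 29.99 CPM. Sites shared by 2 or 3 starts had the same 24 h median as sites at a single start, 0.18 for both.

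Start sites with and without an E-box in the promoter differed after 24 h. Of the 5985 promoters with a tested start site, 1116 held CACCTG. With the E-box, 10.1% of sites were lower after 24 h and 4.03% higher, and without it 3.27% were lower and 11.6% higher. Median log2 changes were -0.17 with and 0.26 without, and from 24 to 72 h they were 0.39 and -0.19. Expressed per library, sites with the E-box took 21.0% and 21.1% of the counts at these sites in control, 16.7% and 16.7% after 24 h, 21.7% and 21.6% after 48 h, and 22.5% and 22.8% after 72 h. Both 24 h libraries lie below all 6 others, and these shares do not depend on scaling. The promoter of LCN2 above is of this kind, with an E-box just before the start and another further up. ATG4C above also holds an E-box, and its site rose most after 24 h among start sites above the median level.

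Promoters with more E-boxes lay further out. At 24 h the median was 0.26 over 4869 sites without a copy, -0.14 over 968 with 1 copy and -0.41 over 148 with 2 or more. The shares of lower sites in these groups were 3.27%, 8.26% and 22.3%. From 24 to 72 h the medians were -0.19, 0.32 and 0.94. Against control after 72 h they were 0.05, 0.14 and 0.41 on the TMM scale. The E-box was in 113 of the 272 sites lower after 24 h (41.5%), in 45 of the 612 higher ones (7.35%) and in 18.6% of all.

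**Figure D4:**
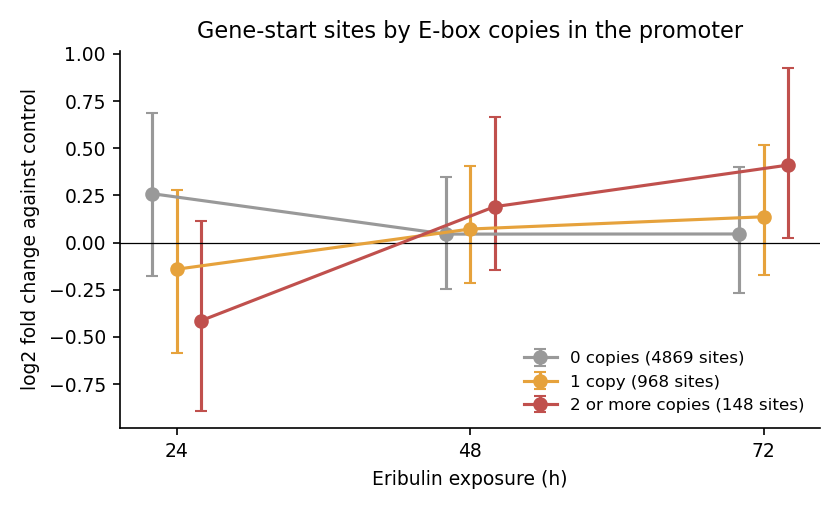
Median log2 fold change against control on the TMM scale (points; bars span the quartiles of sites) at 24, 48 and 72 h of eribulin for start sites whose promoter holds 0, 1, or 2 or more copies of CACCTG. At 24 h the medians step down from 0.26 to -0.14 and -0.41, and after 72 h they step up from 0.05 to 0.14 and 0.41.

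The split by E-box was seen in each of 4 equal groups by GC and by control level after 24 h. In the promoters with the least GC the medians were -0.17 with the E-box and 0.23 without, and in those with the most GC -0.09 and 0.33. In the group with the highest control level they were -0.53 and -0.12, and in the lowest 0.22 and 0.65. The related sequence CAGGTA split the sites alike, with 10.8% lower when present and 4.09% when absent. The E-boxes CAGCTG and CACGTG, which differ in the central bases, gave medians of 0.19 and 0.24 when present and 0.18 and 0.18 when absent. For AP-1 the medians were 0.15 and 0.19, and for TGACGTCA 0.33 and 0.18.

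Among start sites above the median level, the one with the largest fall after 24 h lay at SPATC1L (chr21:46184432-46185209), and it was also the densest in control. It gave 622 and 641 CPM in the control libraries, 88.3 and 82.4 after 24 h, 566 and 554 after 48 h and 849 and 871 after 72 h. The 24 h libraries lie far below the rest, and the 72 h libraries are the highest. The log2 change was -2.88 (95% interval -3.05 to -2.72) after 24 h, with an adjusted p of 1.39e-141 by edgeR, and 3.33 (95% interval 3.16 to 3.51) from 24 to 72 h. A site at the transcript end of its neighbour LSS (chr21:46188496-46188666), which encodes lanosterol synthase of cholesterol synthesis, gave 67.2 and 77.2 CPM in the control libraries, 8.72 and 4.31 after 24 h, 34.8 and 32.5 after 48 h and 45.9 and 35.2 after 72 h. It was also lowest after 24 h, with a log2 change of -3.44 (95% interval -4.09 to -2.87), and the start site of LSS changed by -1.46 (95% interval -1.79 to -1.14).

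LCN2, which encodes a secreted iron-scavenging lipocalin, lost signal at 24 and 48 h. Its start site (chr9:128149021-128149653) gave 249.9 and 251 CPM in the control libraries, 70.3 and 61.96 after 24 h, 74.2 and 73.2 after 48 h and 190.4 and 208 after 72 h. The 24 and 48 h libraries do not overlap the others, and the 72 h libraries lie just under control. The log2 changes were -1.92 (95% interval -2.12 to -1.73), -1.76 (95% interval -1.99 to -1.55) and -0.33 (95% interval -0.49 to -0.18), of which the first 2 were called (adjusted p 3.15e-74 and 6.78e-58 by edgeR). PDZK1IP1, a small membrane protein of epithelia, had a like course, with log2 changes of -1.31, -1.56 and -0.34.

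The other leading losses at starts after 24 h were at CREB3L3, the divergent pair CCDC186 and TDRD1, TJP3 and TNFSF13. CREB3L3 encodes a membrane-bound liver transcription factor, TJP3 a tight junction scaffold, TNFSF13 a cytokine of B cells and TDRD1 a germline tudor protein. Their log2 changes ran from -2.62 at CREB3L3 to -2.04 at TNFSF13. At 72 h the CCDC186 and TDRD1 site was back at control, 0.01 (95% interval -0.18 to 0.19), and TJP3 stood at -0.12 (95% interval -0.58 to 0.32).

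Of the 4 promoters shown with 2 or more copies of CACCTG, PTPN6, TMEM184A and DUS4L were chosen after their values were seen, and LCN2, described above, was still at -1.76 after 48 h. PTPN6, a tyrosine phosphatase, gave 44.3 and 36.9 CPM in the control libraries, 10.3 and 11.9 after 24 h, 16.99 and 30.96 after 48 h and 32.9 and 32.4 after 72 h. TMEM184A, a membrane protein, gave 114 and 122 CPM in the control libraries, 28.7 and 34.5 after 24 h, 101 and 86.1 after 48 h and 122 and 126 after 72 h. The site at DUS4L, a tRNA dihydrouridine synthase that shares its start region with COG5 of the Golgi, gave 44.3 and 41.2 CPM in the control libraries, 15.4 and 15.6 after 24 h, 56.4 and 50.6 after 48 h and 60.6 and 68.5 after 72 h. In each the 24 h libraries were below all others, and at DUS4L the 72 h libraries were above control. Log2 changes after 24 h were -1.88, -1.90 and -1.46, after 48 h -0.76, -0.33 and 0.32, and from 24 to 72 h 1.56, 1.97 and 2.05.

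Gains at starts after 24 h were led by ATG4C, a protease of autophagy, whose promoter also holds CACCTG. Its site (chr1:62783746-62784469) gave 15.1 and 13.2 CPM in the control libraries, 70.3 and 64.1 after 24 h, 30.1 and 30.96 after 48 h and 19.04 and 29.6 after 72 h. The 24 h libraries were the highest and the control libraries the lowest, with no overlap. The log2 change was 2.24 (95% interval 1.90 to 2.61) after 24 h, with an adjusted p of 6.93e-35 by edgeR, and 1.10 (95% interval 0.66 to 1.55) after 48 h, and on the background scale 1.31 and -0.32, a change of sign. ARHGEF12, EEPD1, THOC1 of the mRNA export complex THO, and SMC6 of the SMC5/6 repair complex rose by 1.79 to 1.92 log2. Of these, THOC1 was still higher after 72 h, 1.79 (95% interval 1.23 to 2.36), while EEPD1 stood at -0.17 (95% interval -0.69 to 0.32). SMC6 was called higher at 48 and 72 h too, with log2 changes of 1.26 and 1.43 that turn to -0.16 and -0.06 on the background scale.

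**Figure D5:**
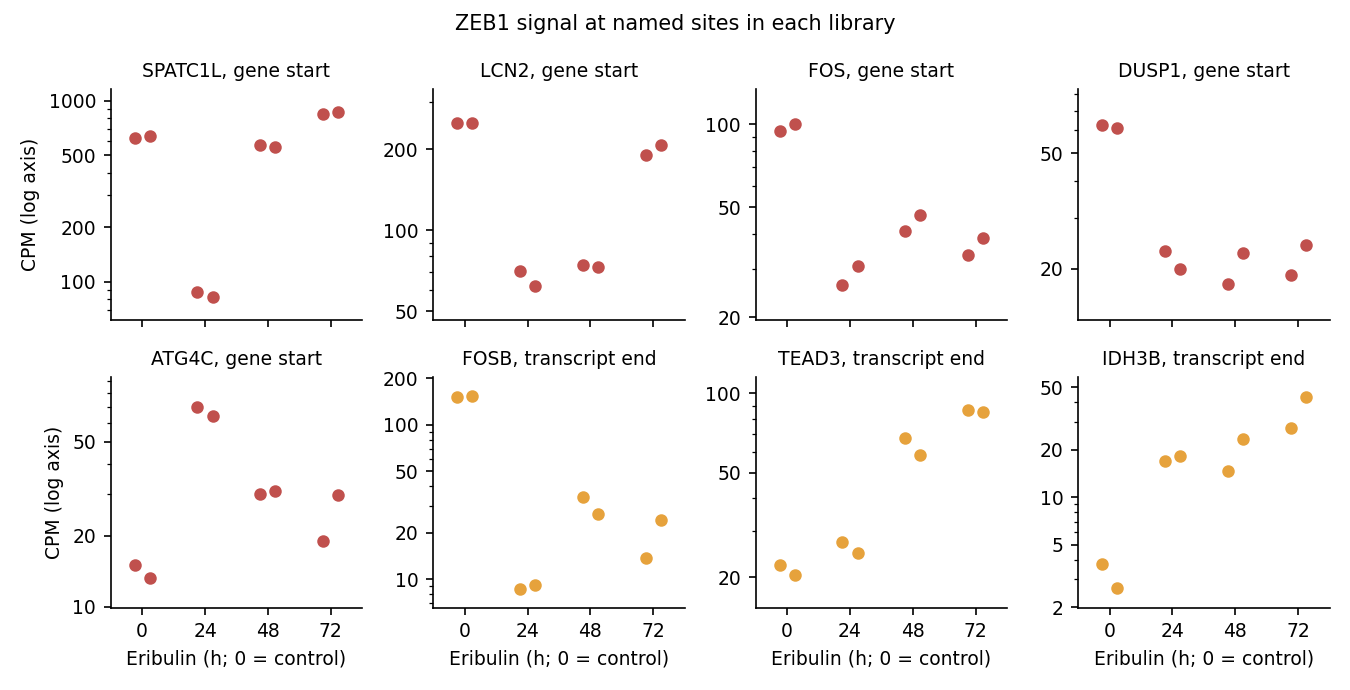
ZEB1 signal in CPM (log axis, different in each panel) in each library at 8 named sites against hours of eribulin, 0 being untreated control; each point is 1 library. The libraries of a condition lie close together, and SPATC1L and LCN2 are high again after 72 h while FOS, DUSP1 and FOSB stay low.

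Immediate early genes, which encode short-lived factors induced by growth signals, had called losses at both starts and transcript ends, though most of their sites were not called. Of their 60 sites tested, 14 were lower and 4 higher after 24 h, 7 and 1 after 48 h, and 7 and 1 after 72 h, with medians of -0.33, -0.21 and -0.21 against 0.02, -0.01 and 0.00 over all sites. Among all sites 13.5%, 7.55% and 8.55% were lower and 14.8%, 10.5% and 12.2% higher. The site past the end of FOSB, an AP-1 subunit (chr19:45475307-45475939), gave 151 and 153 CPM in the control libraries, 8.72 and 9.16 after 24 h, 33.99 and 26.4 after 48 h and 13.8 and 24.1 after 72 h. All treated libraries lay far below control, with log2 changes of -4.08 (95% interval -4.63 to -3.60), -2.33 (95% interval -2.68 to -2.002) and -3.01 (95% interval -3.50 to -2.57), each called, and edgeR's adjusted p after 24 h was 1.83e-85. Its start site was not called at any time, with log2 changes of -0.30, -0.44 and -0.86. A test of the difference between the ends was not run.

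FOS, another AP-1 subunit, was lower at its start at all times. The FOS site (chr14:75278302-75279066) gave 94.7 and 101 CPM in the control libraries, 26.2 and 30.7 after 24 h, 40.9 and 46.8 after 48 h and 33.7 and 38.9 after 72 h. No treated library overlaps control, and the log2 changes were -1.78 (95% interval -2.09 to -1.48), -1.15 (95% interval -1.45 to -0.86) and -1.43 (95% interval -1.78 to -1.09), each called, with an adjusted p of 6.07e-35 after 24 h by edgeR. DUSP1, a phosphatase that switches off MAP kinases, was called lower at both ends at all 3 times. Its start site (chr5:172771226-172771591), which spans the TGACGTCA shown above, gave 62.6 and 61.3 CPM in the control libraries, 23.1 and 19.9 after 24 h, 17.8 and 22.7 after 48 h and 19.04 and 24.1 after 72 h. The end site of DUSP1 changed by -2.37, -1.83 and -1.23, and the start site by -1.52, -1.61 and -1.53.

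JUN, the main partner of FOS, was called lower in the last part of its transcript at all times, with log2 changes of -1.65, -1.64 and -1.47. Its start site had -0.78, -0.32 and -0.22 and was not called. ZFP36, which destabilizes mRNAs, had sites at both ends that were lower after 24 h, -1.74 (95% interval -2.10 to -1.39) at the start and -1.75 (95% interval -2.12 to -1.40) at the end. CITED2, a coactivator-binding protein, was lower past its end, -2.26, -1.61 and -1.80, and its weak start site was not called. CXCL2, a neutrophil chemokine, was called past its end after 48 h alone, -2.26 (95% interval -2.92 to -1.68).

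Other transcript ends with large losses were CRYGN, a lens crystallin gene, and DEPP1. CRYGN gave 55.6 and 43.5 CPM in the control libraries, 5.64 and 4.85 after 24 h, 10.8 and 2.27 after 48 h and 6.92 and 7.40 after 72 h. All treated libraries were below control, and log2 changes were -3.23, -2.93 and -2.79. DEPP1 was lowest after 72 h, -1.95 (95% interval -2.91 to -1.14). SCD, the desaturase that makes monounsaturated fatty acids, was lower at its start at all times, -1.25, -1.14 and -1.84, and past its end at 24 and 72 h, -1.31 and -1.18.

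Gains at transcript ends were led by IDH3B, a subunit of mitochondrial isocitrate dehydrogenase. The site (chr20:2658675-2659113) gave 3.77 and 2.64 CPM in the control libraries, 16.9 and 18.3 after 24 h, 14.7 and 23.4 after 48 h and 27.7 and 43.5 after 72 h. All treated libraries were above control, with log2 changes of 2.42 (95% interval 1.72 to 3.22), 2.54 (95% interval 1.80 to 3.37) and 3.42 (95% interval 2.74 to 4.22), and its midpoint lay just inside the 500 bp limit. The adjusted p by edgeR was 1.15e-23 after 72 h. TMEM107, a protein of the cilium, rose by 2.11, 2.02 and 2.08. CSF2, the cytokine GM-CSF, was higher past its end at 24 and 72 h, 1.23 (95% interval 0.72 to 1.76) and 2.39 (95% interval 1.91 to 2.90), and not called after 48 h. TEAD3, a DNA-binding partner of YAP, gave 22.3 and 20.4 CPM in the control libraries, 27.2 and 24.8 after 24 h, 67.98 and 58.1 after 48 h and 86.5 and 85.1 after 72 h. Its 48 and 72 h libraries lay above the others, with log2 changes of 1.55 (95% interval 1.22 to 1.89) and 1.999 (95% interval 1.68 to 2.33), and an adjusted p after 72 h of 1.5e-29 by edgeR.

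The late gains at starts included GOLPH3, a Golgi phosphoprotein, AIMP1 of the tRNA synthetase complex, and KIAA0319. At 72 h they had log2 changes of 2.50 (95% interval 1.85 to 3.20), 2.24 (95% interval 1.77 to 2.73) and 2.30 (95% interval 1.71 to 2.93). GOLPH3 gave 3.48 and 5.94 CPM in the control libraries, 10.8 and 12.4 after 24 h, 21.6 and 30.2 after 48 h and 23.4 and 29.6 after 72 h. All treated libraries exceeded control there. LOC124904094 and CDRT15 peaked after 48 h, 3.37 (95% interval 2.85 to 3.95) and 2.53 (95% interval 1.99 to 3.11). TAF11L3, TAF11L5 and TAF11L7 are also among the leading gains, but they are near-identical copies in 1 cluster, so the reads cannot be placed with certainty among them.

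Called sites of epithelial junction and polarity genes were mostly lower after 24 h and all higher at 48 and 72 h, and most sites were not called. Of the 36 tested, 13 were lower and 2 higher after 24 h, 0 and 6 after 48 h, and 0 and 9 after 72 h, with medians of -0.36, 0.02 and 0.35, and 0 were lower and 22 higher from 24 to 72 h, median 1.23. The shares over all sites were 13.5% lower and 14.8% higher after 24 h, 7.55% and 10.5% after 48 h, 8.55% and 12.2% after 72 h, and 9.26% and 12.1% from 24 to 72 h. On the background scale the list was lower at every time against control, with medians of -1.29, -1.40 and -1.15, and stayed higher from 24 to 72 h, 0.66. PARD6B, a polarity protein whose strand was not known here, gave 479 and 501 CPM in the control libraries, 207 and 230.1 after 24 h, 503 and 480.3 after 48 h and 616 and 603 after 72 h. The 24 h libraries were the lowest and the 72 h libraries the highest, with log2 changes of -1.16 (95% interval -1.28 to -1.05) and 0.32 (95% interval 0.23 to 0.41). DSP, the desmosome protein desmoplakin, gave 56.2 and 66.3 CPM in the control libraries, 45.7 and 44.2 after 24 h, 80.3 and 81.6 after 48 h and 115 and 106 after 72 h, and its change from 24 to 72 h was 1.30 (95% interval 1.02 to 1.59).

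Among 9 sites of epithelial regulators, 2 were lower and 2 higher after 24 h, 1 and 2 after 48 h, and 0 and 2 after 72 h. Over all sites 13.5% were lower and 14.8% higher after 24 h, 7.55% and 10.5% after 48 h, and 8.55% and 12.2% after 72 h. With so few sites, the counts against control do not single out the list. From 24 to 72 h, 7 of the 9 were higher and none lower, beside 12.1% higher and 9.26% lower over all sites. The median of the list was 1.34 on the TMM scale and 0.77 on the background scale, where 4 were higher and 2 lower. ELF3, an epithelial ETS factor, gave 125 and 126 CPM in the control libraries, 30.8 and 47.9 after 24 h, 54.8 and 52.9 after 48 h and 79.6 and 88.8 after 72 h. It was called lower at 24 and 48 h, -1.68 (95% interval -1.94 to -1.43) and -1.22 (95% interval -1.49 to -0.96). KDF1, a keratinocyte differentiation factor, rose at 48 and 72 h by 2.17 and 2.04.

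Of 15 sites of transcription factors of the epithelial-mesenchymal transition, 3 were lower and 1 higher after 24 h, and 1 and 1 at both later times. All sites gave 13.5% lower and 14.8% higher after 24 h, 7.55% and 10.5% after 48 h, and 8.55% and 12.2% after 72 h. With 15 sites, the counts do not single out this list. The start of ZEB1 itself (chr10:31318227-31319092) gave 75.9 and 70.9 CPM in the control libraries, 54.4 and 49.03 after 24 h, 118 and 105 after 48 h and 145 and 136 after 72 h. Its 24 h libraries were lowest and its 72 h libraries highest, and the change from 24 to 72 h was called, 1.44 (95% interval 1.18 to 1.71), while none of the changes against control reached 2-fold and the 72 h one is -0.57 on the background scale. FOSL1, an AP-1 subunit, was lower after 24 h, -1.01 (95% interval -1.21 to -0.81), and higher from 24 to 72 h, 1.33 (95% interval 1.10 to 1.56). Mesenchymal effectors, beside the same shares over all sites, had 0 lower and 2 higher of 25 at 24 and 48 h, and 1 and 2 after 72 h. Most of their sites, 19 of 27, lay at starts. Start sites as a class had 4.77% lower and 10.2% higher after 24 h. The start-site shares were 1.36% and 4.55% after 48 h, and 1.39% and 6.13% after 72 h. VIM, the intermediate filament vimentin, stood at 0.66 (95% interval 0.39 to 0.94) after 24 h, under 2-fold, and PLAU, the protease urokinase, rose past its end after 72 h by 2.42 (95% interval 1.70 to 3.22) from a weak site.

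Of 24 sites of TGF-beta pathway and target genes, 3 were lower and 1 higher after 24 h, 3 and 1 after 48 h, and 2 and 0 after 72 h. YAP and TEAD targets had 1 lower and 3 higher of 28 at each time. All sites had 13.5% lower and 14.8% higher after 24 h, 7.55% and 10.5% after 48 h, and 8.55% and 12.2% after 72 h. With so few sites, the counts of the 2 lists single out neither.

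Consensus sites were common at promoters of housekeeping genes. A start site was present at 92.1% of ribosomal protein genes, 92.8% of mitochondrial ribosomal protein genes and 81.8% of proteasome genes with a known strand. The share was 52.4% for all genes and 23.1% (3 of 13) for lineage genes expected to be silent in these cells. Their expression was not examined here. The counts that follow cover sites of all classes. Starts made up 58 of 82 ribosomal, 67 of 75 mitochondrial ribosomal, 27 of 33 proteasome and 3 of 5 lineage sites. Start sites as a class had 4.77% lower and 10.2% higher after 24 h. They had 1.36% and 4.55% after 48 h, and 1.39% and 6.13% after 72 h. Over all sites these shares were 13.5% and 14.8%, 7.55% and 10.5%, and 8.55% and 12.2%. Of 81 ribosomal protein sites, 0 were lower and 8 higher after 24 h, 0 and 2 after 48 h, and 2 and 4 after 72 h. Of 72 mitochondrial ribosomal protein sites, 6 were lower and 6 higher after 24 h, 1 and 2 after 48 h, and 0 and 3 after 72 h. The site shared by CYB5RL and MRPL37, a mitochondrial ribosomal protein, was lower after 24 h, -1.41 (95% interval -1.66 to -1.18), and higher from 24 to 72 h, 1.78 (95% interval 1.52 to 2.05). Of 32 proteasome sites, 0 were lower at each time and 3, 1 and 1 were higher. PSMC4, a proteasome ATPase, stood at -0.97 (95% interval -1.35 to -0.61) after 72 h, just under the 2-fold limit. PSMD3, a proteasome lid subunit, stood at 0.89 after 24 h and was lower from 24 to 72 h, -1.37 (95% interval -1.79 to -0.97). The 5 sites of these lineage genes had 0 lower at each time and 1, 1 and 2 higher, among them the start of INS, the insulin gene, at 48 and 72 h. On the background scale these lists were lower at every time, with medians from -0.66 to -1.56 for ribosomal proteins and -0.77 to -1.49 for the proteasome.

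Of 42 sites of clustered histone genes, 0 were lower and 11 higher after 72 h on the TMM scale, median 0.66, beside 8.55% lower and 12.2% higher among all sites, but on the background scale 17 were lower and 0 higher, median -0.84. At 24 h 4 were higher and after 48 h 1, beside 14.8% and 10.5% higher among all sites. Most histone sites, 37 of 46, lay at starts, so the start-site shares given below apply to them as well. The site shared by H2AC14 and H2BC14 gave 35.9 and 38.9 CPM in the control libraries, 46.7 and 45.3 after 24 h, 43.3 and 49.8 after 48 h and 98.7 and 99.03 after 72 h. The 72 h libraries alone stood apart, with a log2 change of 1.40 (95% interval 1.14 to 1.67) that is -0.10 on the background scale. Histone genes are short and near-identical, so single members are uncertain. Zinc finger genes had 6 lower and 29 higher of 351 after 24 h, 1 and 8 after 48 h, and 2 and 17 after 72 h, and on the background scale 117 and 2, 280 and 1, and 269 and 1. Most zinc finger sites, 311 of 364, lay at starts. Among all start sites 4.77% were lower and 10.2% higher after 24 h. The start-site shares were 1.36% and 4.55% after 48 h, and 1.39% and 6.13% after 72 h. ZNF165, strand not known here, gave 39.7 and 36.6 CPM in the control libraries, 69.8 and 68.96 after 24 h, 99.6 and 92.1 after 48 h and 173 and 205 after 72 h. It stood above control in every treated library, and its 72 h change was 2.30 (95% interval 2.07 to 2.53), 0.79 on the background scale.

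Tubulin and mitosis genes, close to the drug's target, had few called sites, as start sites did as a class. Of their 46 sites, 39 lay at starts. After 24 h 1 site was lower and 3 higher, after 48 h 1 and 0, and after 72 h 0 and 2. Among all start sites 4.77% were lower and 10.2% higher after 24 h. The start-site shares were 1.36% and 4.55% after 48 h, and 1.39% and 6.13% after 72 h. AURKB, the kinase of the chromosomal passenger complex, rose after 72 h by 1.48 (95% interval 1.03 to 1.94), which is -0.02 on the background scale. TUBB4B, a beta tubulin, stood at 0.77 (95% interval 0.60 to 0.93) after 24 h. Of 26 kinesin sites, also mostly at starts, none were lower and 3, 2 and 2 were higher. Of 31 p53 target and arrest sites, 1 was lower and 7 higher after 24 h with a median of 0.35, beside 13.5% lower, 14.8% higher and a median of 0.02 over all sites. They had 0 and 2 after 48 h, and 0 and 0 after 72 h, on the background scale 11 and 0, 24 and 0, and 27 and 0. The shares over all sites were 7.55% lower and 10.5% higher after 48 h, and 8.55% and 12.2% after 72 h. Most p53 sites, 21 of 32, lay at starts, so the start-site shares above apply to them as well. The median of all start sites after 24 h was 0.18. Of 40 sites of interferon and innate genes, 2 were lower and 3 higher after 24 h, 4 and 2 after 48 h, and 1 and 5 after 72 h. With DESeq2 size factors 4 were lower after 24 h and 2 after 72 h.

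At 285 genes separate sites were tested at both ends. Of the strongest, ARRB2, an arrestin, had -0.08 at the start and 0.44 at the end after 72 h, neither called. TMEM14B was lower at its start after 24 h, -1.01 (95% interval -1.26 to -0.77), and at its end stood at 0.11 (95% interval -0.11 to 0.32). The end site of ECSIT is also the start site of ZNF653, with -0.96 (95% interval -1.19 to -0.73) after 24 h, and the start of ECSIT stood at -0.14 (95% interval -0.35 to 0.07). Of 347 sites 400 to 500 bp from a start 282 were tested, and of 340 sites 500 to 600 bp away 279. Across this limit of 500 bp, the tested sites had median control levels of 13.0 and 10.6 CPM. Their median log2 changes were 0.20 and -0.03 after 24 h, and 0.27 and 0.27 after 72 h.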

How the data were processed

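ZEB1 CUT&RUN libraries (8, 2 per condition) were used, and the labels map each to its condition. Per the submitters' processing notes the reads were handled with Bowtie2 2.2.6, MACS2 2.1.1, featureCounts, bedtools 2.30.0, Picard, cutadapt 2.4, deepTools and bcl2fastq 2.20.0.422 on hg38; roles and order are not given. The deposited table holds raw counts per consensus site, not said to be of reads or of fragments in the sources used here. Each condition has a deposited peak list, with the authors' fold enrichment (a ratio) of every peak, its −log10 p and its −log10 q. The q values were used to apply a stricter cutoff. The fold enrichment and the p values were used to recover the background level on which the alternative scale rests.

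Gene bounds came from the RefSeq GRCh38.p14 table and strand from the promoter table, which covers 15101 of 19126 genes on chromosomes 1 to 22. Ends of the other 4025 genes were not split. Counts were fitted with edgeR 4.0.16 (R 4.3.3) over all 8 libraries and all sites that passed filterByExpr by condition (46436, of which 8643 at gene ends): TMM factors, a robust quasi-likelihood fit with condition as the only term, and Benjamini-Hochberg adjustment over all of them. Intervals of log2 changes are 95% and exact binomial, from the counts of both libraries together. The common dispersion was 9.77e-05. Data were simulated for 72 h against control over 36210 sites, with counting noise only and no variation between cultures. Of 100 sites changed 2-fold 32 were called, and of 100 changed 4-fold 91, with 2 false calls. These false calls give no error rate for the real comparisons.

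Named sites are, per comparison with control, class and direction, the 5 called sites with the largest change above the median level with both treated libraries beyond both controls; the 10 densest sites in control; the site with the smallest p in each of 17 gene lists and comparison; and the 5 strongest genes with sites at both ends. Named after their values were seen were TMEM184A, PTPN6, DUS4L, and the start sites of FOS, FOSB, JUN and CITED2 and the end site of SCD. The members and lists were chosen with earlier results of these data known. Libraries with the same replicate number did not deviate together, with correlations from -0.00449 to 0.0133, so replicate numbers were not taken as pairs. Alternatives tried were other scalings, DESeq2 1.42.0, no filter, no fold limit, an assumed biological coefficient of variation of 0.2, a replicate block, leaving out each library, windows of 250 and 1000 bp, and stricter peaks.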

Additional observations from a re-analysis of the deposited data

Results flagged for a closer look

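At 8 named sites the changes against control at 24 h and at 72 h passed the adjusted p in opposite directions on the TMM scale, and the direct comparison of 72 h with 24 h, which tests that difference, was called as well. The log2 change from 24 to 72 h was 3.33 at the SPATC1L start, 2.05 at the DUS4L start, 1.78 at the start shared by CYB5RL and MRPL37, 1.48 at PARD6B, 1.44 at the start of ZEB1 itself, 1.33 at FOSL1 and 1.30 at DSP. At PSMD3, a proteasome subunit, it ran the other way, -1.37. On the background scale the 72 h value against control is negative at all 8, from -1.98 at PSMD3 to -0.57 at ZEB1, so the opposite signs are relative to the bulk of sites, while the rise from 24 to 72 h keeps its sign at the 7 sites that rose, from 0.73 at DSP to 2.76 at SPATC1L.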

How the results depend on the processing

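Of 100 simulated sites set at 2-fold for 72 h against control, 55 passed the adjusted p and 32 were called, which also takes at least 2-fold. The part of library depth in these numbers was not tested. An uncalled site is thus not an unchanged one, and the small dispersion holds no variation between cultures. Counts below are for start sites lower and higher, then transcript ends lower and higher. The scale had the widest reach. On the background scale they were 2452, 46, 210 and 6 after 24 h, 5362, 35, 284 and 4 after 48 h, 5345, 19, 274 and 3 after 72 h, and 2058, 127, 87 and 23 for 72 h against 24 h. There the log2 changes of called sites reversed at ATG4C (48 h, -0.32), SMC6 (48 h, -0.16; 72 h, -0.0646), AURKB (72 h, -0.0210), MRPL36 (48 h, -0.14; 72 h, -0.43), H1-2 (72 h, -0.21), H4C12 (48 h, -0.21; 72 h, -0.25), H2AC14 (72 h, -0.10) and ZNF165 (48 h, -0.10). TMM over the weakest sites only gave 676, 323, 116 and 18 after 24 h, 210 and 194 at starts after 48 h, and 209 and 277 at starts after 72 h. DESeq2 size factors moved no count of these classes by over 1.5 times. DESeq2 itself called 23 transcript ends higher after 24 h, 41 and 173 starts and 10 transcript ends lower after 48 h, 51, 253, 15 and 26 after 72 h, and 266 starts lower and 9 and 51 transcript ends for 72 h against 24 h. With the adjusted p alone the counts were 1267, 2253, 132 and 76 after 24 h, 715, 899, 67 and 48 after 48 h, 697, 1093, 56 and 67 after 72 h, and 1363 and 1181 at starts and 42 transcript ends lower for 72 h against 24 h. An assumed coefficient of variation of 0.2 left 56 starts and 16 transcript ends lower after 48 h, 62 starts lower after 72 h, and 296 starts and 10 transcript ends lower for 72 h against 24 h. Without the low-count filter no count moved by over 1.5 times.

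Leaving out 1 library gave 15 to 24 transcript ends lower for 72 h against 24 h, where 24 were called with all libraries, and the 15 came without either 72 h library; no other count moved by over 1.5 times. The replicate block changed no call of a named site and gave 329 lower and 707 higher starts after 24 h. With a window of 250 bp transcript ends had 28 and 18 calls after 24 h, 14 and 12 after 48 h, 11 and 23 after 72 h, and 11 and 36 for 72 h against 24 h, and 207 starts were higher after 48 h. With 1000 bp they had 140 and 61, 64 and 64, 53 and 87, and 41 and 164. Start sites then took 15.2%, 16.7%, 14.9% and 15.3% of counts with 250 bp and 21.3%, 22.7%, 20.9% and 21.7% with 1000 bp (control, 24, 48 and 72 h), and transcript ends 0.324%, 0.291%, 0.301% and 0.331%, and 1.63%, 1.33%, 1.44% and 1.58%. Peaks were present at 94.6% and 84.2% of starts in control and after 24 h with 250 bp, and at 91.8%, 77.2%, 55.0% and 49.6% with 1000 bp. Requiring a peak over at least 50% of the site gave 90.8%, 67.8%, 33.4% and 27.6% of starts, and 43.7%, 22.5% and 19.2% of transcript ends at 24, 48 and 72 h. Peaks with q under 0.001 gave 91.9%, 80.0%, 55.3% and 49.3% of starts. Counting CACCTG only inside the site, chosen after seeing the data, turned the 48 h difference of medians from 0.05 to -0.00103, and the cause was not tested.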
